A study of Homo sapiens with 24 samples.

Results

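Intron windows near splice sites are the stretches of intron that follow the window lying directly at a splice site, up to 4 windows deep on either side of an exon. They were taken as every window whose deposited annotation class was near a 5′ splice site, near a 3′ splice site or near both, and a window was identified by its chromosome, start, end and strand. Over the 6 deposited lists, 24060 of 225825 distinct windows belonged to these classes, and they lay in 5020 genes. Of them, 13355 (55.5%) were near a 5′ splice site, 5178 (21.5%) near a 3′ splice site, and 5527 (23%) near both, which is the class of short introns. A window is at most 100 bases long on hg38, and positions are given 1-based.

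The lists come from eCLIP, in which RNA crosslinked to a protein is immunoprecipitated (IP) and sequenced beside an input library of the same lysate. The study held 24 libraries of HEK293 cells, a human embryonic kidney line, in 12 groups of 2 replicates. SNRNP200 was profiled in whole cells, without treatment and under 500 µM arsenic, and likewise in a cytoplasmic fraction, while CAPRIN and G3BP1 were profiled in untreated cells only. How long arsenic was applied is not stated in the labels, nor whether paired replicates came from different cultures, so each spread below may be technical. A window entered a list where the authors called it enriched over input in the replicates, and its log2 enrichment, IP over input, is given below as the mean with the lowest and the highest replicate. The lists held between 3023 and 182066 windows each. All protocols name 1 antibody number although 3 proteins were targeted, so the protein is taken here from the sample titles.

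SNRNP200, also called Brr2, is a U5 snRNP helicase that separates U4 from U6 snRNA when the spliceosome is activated. U1 and then U6 contact the 5′ end of an intron, the branch site and its polypyrimidine tract lie before the 3′ end, and the U5 snRNP holds the exon ends. CAPRIN and G3BP1 are cytoplasmic RNA-binding proteins of stress granules, the RNA and protein bodies that form when translation stops, for example under arsenic.

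The sequences of 11 windows near splice sites are shown, all wholly inside a RefSeq promoter entry (GRCh38.p14). Such an entry spans 250 bases before to 50 after a transcription start. Those from the whole cell lists are among the strongest of each class only within such entries, with at least 50 IP reads. Windows outside these entries could be stronger. MEPCE, UBE3A and TMEM167A were listed for CAPRIN. Only 283 of the 24060 windows (1.18%) lay inside such an entry, and the GC content of all 283 equalled the deposited value within 0.0001. They were chosen after their values were seen, and since they lie beside a transcription start they need not be typical of the class. Each is written 5′ to 3′ on the strand of its gene, and capitals mark runs of 4 or more G, which 5 of the 11 windows hold. They lie, on hg38, in CHTF8 at chr16:69132152-69132228 (minus strand), NUP50 at chr22:45164480-45164562 (plus strand), BRD2 at chr6:32973028-32973083 (plus strand), WTAP at chr6:159727434-159727505 (plus strand). Further ones lie in EIF4G1 at chr3:184320130-184320215 (plus strand), SLC3A2 at chr11:62881548-62881622 (plus strand), IRF3 at chr19:49664947-49665038 (minus strand), PPP1R10 at chr6:30617244-30617328 (minus strand), and the last in MEPCE at chr7:100429614-100429685 (plus strand), UBE3A at chr15:25438330-25438388 (minus strand) and TMEM167A at chr5:83077454-83077535 (minus strand).
CHTF8: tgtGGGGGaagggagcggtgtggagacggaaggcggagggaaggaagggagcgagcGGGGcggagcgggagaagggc
NUP50: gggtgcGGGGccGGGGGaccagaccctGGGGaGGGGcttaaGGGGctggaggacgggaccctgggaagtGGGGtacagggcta
BRD2: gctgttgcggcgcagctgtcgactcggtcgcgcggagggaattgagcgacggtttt
WTAP: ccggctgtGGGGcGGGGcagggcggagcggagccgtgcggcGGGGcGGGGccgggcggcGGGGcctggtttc
EIF4G1: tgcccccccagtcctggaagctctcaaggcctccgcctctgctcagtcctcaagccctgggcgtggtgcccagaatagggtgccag
SLC3A2: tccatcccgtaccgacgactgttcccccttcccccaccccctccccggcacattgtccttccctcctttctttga
IRF3: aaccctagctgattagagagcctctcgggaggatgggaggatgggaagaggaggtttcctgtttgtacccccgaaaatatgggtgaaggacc
PPP1R10: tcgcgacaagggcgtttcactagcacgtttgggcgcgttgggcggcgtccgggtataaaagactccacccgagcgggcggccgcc
MEPCE: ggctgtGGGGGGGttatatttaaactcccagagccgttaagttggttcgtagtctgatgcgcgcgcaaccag
UBE3A: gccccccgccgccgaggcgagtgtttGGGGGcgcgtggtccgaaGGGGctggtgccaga
TMEM167A: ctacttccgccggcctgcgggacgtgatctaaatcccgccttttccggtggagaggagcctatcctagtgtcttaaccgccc

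The windows of CHTF8 (a subunit of an alternative clamp loader of replication), NUP50 (a nuclear pore protein), BRD2 (a bromodomain reader of acetylated histones) and WTAP (a subunit of the N6-methyladenosine writer) lie near a 5′ splice site. Those of EIF4G1, the scaffold of the cap-binding initiation complex, and SLC3A2, the heavy chain of amino acid transporters, lie near both splice sites of a short intron. IRF3, a transcription factor of the interferon response, and PPP1R10, a nuclear regulator of protein phosphatase 1, gave windows near a 3′ splice site. MEPCE caps the 7SK RNA, UBE3A is a ubiquitin ligase, and the window of TMEM167A was listed for both CAPRIN and G3BP1. In untreated whole cells the log2 enrichment of NUP50 was 5.38 and 6.03 in the replicates, that of EIF4G1 3.85 and 5.06, and that of IRF3 2.94 and 5.43. With arsenic WTAP had 5.41 and 5.92, SLC3A2 4.8 and 5.77, and PPP1R10 3.74 and 5.25. TMEM167A had 4.02 and 5.62 for CAPRIN and 4.36 and 5.21 for G3BP1, and its ranges overlapped. The values of the other 4 are given with the lists they lead or share.

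A run of GGGG occurred in 97 of the 120 whole cell windows near splice sites that were 100 bases long and had a sequence (80.8%). The same motif stood in 262 of 369 such windows at splice sites (71.0%), and in 47.8% of 35116 promoters over a stretch of equal length before the start. Median GC content, as a fraction, was 0.695 near and 0.68 at splice sites. The promoters were not matched to the windows in GC content, and its part in the motif shares was not tested. GTGAGT, a common start of an intron, was in 2 of the 120 windows near splice sites (1.67%) against 70 of 369 at splice sites (19%) and 2.3% of promoters. GTAAGT was in 0 of the 120, which allows a share of up to 2.5%, in 27 of 369 at splice sites (7.32%) and in 0.917% of promoters. Windows at a 5′ splice site hold the start of the intron, and near windows lie beyond it. The contrast in GTGAGT and GTAAGT was thus set by the classes and is no finding. TTTTT was found in 10 of the 120 (8.33%), in 48 of 369 at splice sites (13%) and in 9.45% of promoters. All 4 motifs were searched on the strand of the window or of the promoter's gene, and a match is a description only.

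The mature sequences of 4 miRNAs of RefSeq (GRCh38.p14) lay wholly inside windows near splice sites, out of 45 windows whose deposited annotation includes a primary miRNA. They are shown with bases 2 to 8, the seed, in capitals, because their reads cannot be assigned to the intron or to the miRNA precursor.
hsa-miR-5582-5p: uAGGCACAcuuaaaguuauagc
hsa-miR-5582-3p: uAAAACUUuaagugugccuagg
hsa-miR-637: aCUGGGGGcuuucgggcucugcgu
hsa-miR-4329: cCUGAGACccuaguuccac

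Both arms of miR-5582 lie in a short intron of CKAP5, a microtubule polymerase, in a window with 12 IP and 3 input reads and a log2 enrichment of 3.10 (2.67 and 3.53 in the replicates). The window with miR-637, near a 3′ splice site of the kinase gene DAPK3, had 14 IP and 1 input reads and 3.38 (2.54 and 4.22). That with miR-4329, near a 5′ splice site of AMOT, a scaffold of the Hippo pathway, had 32 IP and 3 input reads and 3.95 (3.44 and 4.45). All 3 were listed in untreated whole cells, and no 2 of the 4 seeds are the same.

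The whole cell lists of SNRNP200 hold nearly all of these windows. In untreated cells 19788 of 182066 windows were near a splice site (10.9%, 95% exact interval 10.7% to 11%), and with arsenic 10412 of 117690 (8.85%, 8.69% to 9.01%). Windows directly at a splice site made up 35.7% and 41% of the same lists. Exact (Clopper-Pearson) intervals here cover counting error only, since reads and neighbouring windows are not independent and the lists give no share per replicate. In the cytoplasmic fraction 9 of 4182 untreated windows (0.215%, 0.0985% to 0.408%) and 8 of 6773 with arsenic (0.118%, 0.0510% to 0.233%) were near a splice site. CAPRIN had 172 of 15831 (1.09%, 0.931% to 1.26%) and G3BP1 55 of 3023 (1.82%, 1.37% to 2.36%). These 2 shares depend on the windows counted: weighted by IP reads they were 3.25% and 4.08%. G3BP1 had 3.29% at a q-value under 0.05 and 0.665% with at least 20 IP and 10 input reads. The whole cell shares depend on it too. Untreated and with arsenic they were 7.96% and 7.87% with that read minimum, and 6.25% and 4.22% at a q-value under 0.05.

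Most windows near splice sites were listed once: 17694 were in 1 list, 6350 in 2, 14 in 3 and 2 in 4. The pair of whole cell lists accounts for 6333 shared windows. A window of UBTD2, a ubiquitin domain protein, and 1 of MEPCE were the 2 windows in 4 lists, and their values are given with the cytoplasmic and granule lists.

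Windows near splice sites were far more often on the 5′ side of the intron. In untreated whole cells 10858 were near a 5′ and 4262 near a 3′ splice site, a ratio of 2.55 (71.8% on the 5′ side, 71.1% to 72.5%). With arsenic 5909 and 1952 gave a ratio of 3.03 (75.2%, 74.2% to 76.1%). The windows directly at splice sites were closer to balance, with ratios of 1.24 and 1.26 (55.3% and 55.7% on the 5′ side). The remaining 4668 and 2551 windows lay near both splice sites.

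The number of listed windows fell with distance from the splice site. The 4668 untreated and 2551 arsenic windows near both splice sites are left out of the near positions below. Windows at the site are counted whatever class follows them. How many windows the annotation offers at each position was not counted, so the part of the class definition in the fall was not tested. Distance can be read from the deposited order of windows for the 5′ side on the plus strand and the 3′ side on the minus strand, where the listed window before the first near window was at the splice site in 98.6% to 99.2% of cases. In untreated whole cells there were 16745 windows at the 5′ splice site on that strand, then 3156, 1231, 745 and 519 in the 4 positions that follow. On the 3′ side 13440 windows at the site were followed by 856, 597, 438 and 310. With arsenic the 5′ side held 12619, then 1775, 645, 348 and 258, and the 3′ side 9933, then 435, 227, 170 and 135.

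Enrichment fell in parallel. Median log2 enrichment in untreated cells was 3.90 at the 5′ splice site and 3.20, 3.15, 3.04 and 2.97 in the positions after it. The 3′ side went from 3.71 to 3.23, 3.12, 3.05 and 3.04. With arsenic the medians were 4.0, then 3.46, 3.32, 3.22 and 3.12 on the 5′ side. On the 3′ side with arsenic they were 3.83, then 3.29, 3.22, 3.34 and 3.09, so the third position was above the second. Every quartile range overlapped that of its neighbour, and the steps between near positions were smaller than the spread over windows.

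**Figure D1:**
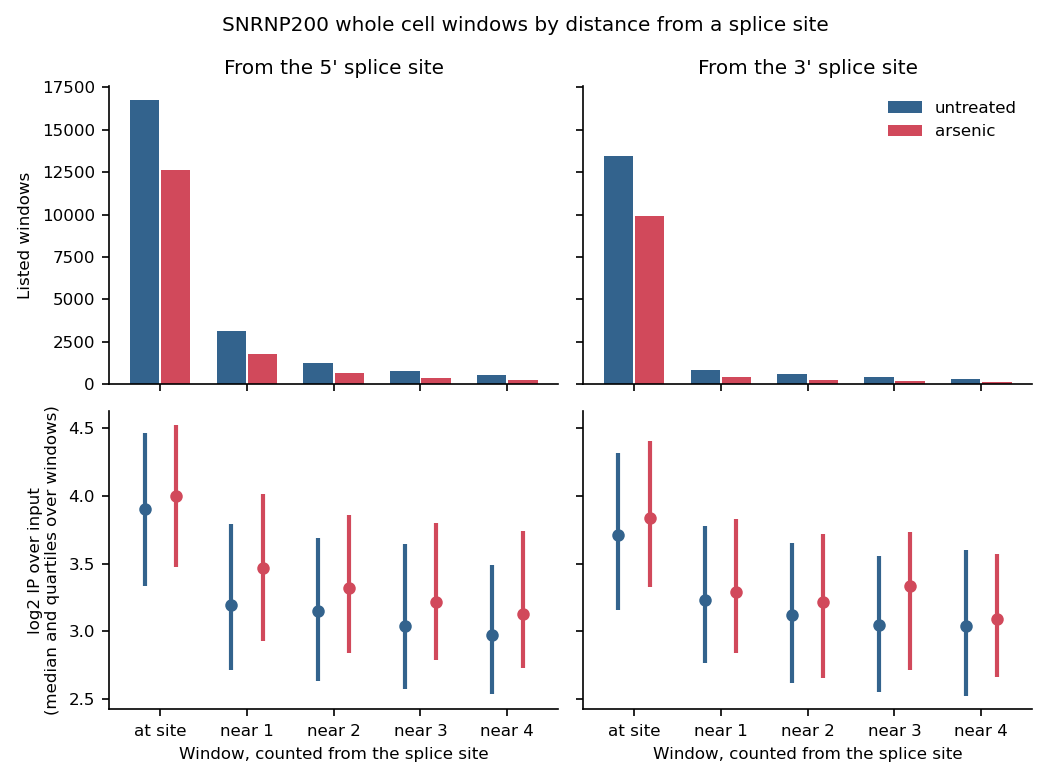
Number of listed SNRNP200 whole cell windows (upper panels) and their log2 IP over input (lower panels, points are medians and lines run from the first to the third quartile over windows) at the splice site and in the 4 windows that follow, for untreated and arsenic lists. The counts drop from 16745 to 3156 on the 5′ side and from 13440 to 856 on the 3′ side of untreated cells, and the medians drop most between the site and the first window. Windows near both splice sites are not counted in the near positions.

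Within single introns the same step was seen. Where the first near window on the 5′ side and the window at the splice site were both listed (2381 pairs untreated), the near window was lower in 1811 (76.1%), with a median difference of −0.75 in log2 (quartiles −1.44 and −0.03). The 1344 pairs with arsenic gave −0.69, and the near window was lower in 74.8%. On the 3′ side the median step was −0.43 over 624 pairs untreated and −0.57 over 306 with arsenic. Further in, steps on the 5′ side ranged from −0.12 to −0.31, while on the 3′ side those into the 2 farthest positions were between 0.02 and 0.11. These steps compare neighbouring windows of the same libraries and have no test over samples.

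Most stretches near splice sites had 1 near window listed, not counting the window at the splice site. Of 8120 stretches near a 5′ splice site with a listed window in untreated cells, 6080 (74.9%) had 1 window listed and 118 (1.45%) had 4. Near 3′ splice sites 2386 of 3202 stretches (74.5%) had 1 and 37 (1.16%) had 4. With arsenic 77.1% and 79.3% of stretches had 1. They were not isolated from the splice site, where position could be read. Of first near windows on the 5′ side, 76.4% had a listed window directly before them in untreated cells and 76.3% with arsenic. On the 3′ side these shares were 73.9% and 71.0%. Of the windows at a 5′ splice site, 19.5% were followed by a listed window in untreated cells and 15.2% with arsenic, and of those at a 3′ splice site 11% and 7.99%.

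Beside the other intron classes, windows near splice sites were the middle group in enrichment. In untreated whole cells their median log2 enrichment was 3.24 (quartiles 2.71 and 3.82), against 3.84 at splice sites and 3.04 in deep intron. With arsenic the medians were 3.42, 3.94 and 3.3. The lists give no class median per replicate, so these differences between classes have no test over samples. Windows near both splice sites were higher, at 3.51 and 3.64, than those near 5′ sites (3.17 and 3.38) or 3′ sites (3.13 and 3.28).

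Fewer of them passed a stricter cut. In the authors' deposited table, a q-value of IP against input under 0.05 in the worse replicate was reached by 5351 of the 19788 untreated windows (27%) and by 54.5% of those at splice sites. With arsenic these shares were 13.7% and 34.3%. Median read numbers were 23 IP and 3 input near against 27 and 2 at splice sites in untreated cells. With arsenic they were 26 and 3 against 26 and 2, so median input was higher near splice sites in both lists. Median GC content was 0.50 and 0.51 near against 0.45 and 0.43 at splice sites. The part of read number and base composition in the difference of levels was not tested.

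**Figure D2:**
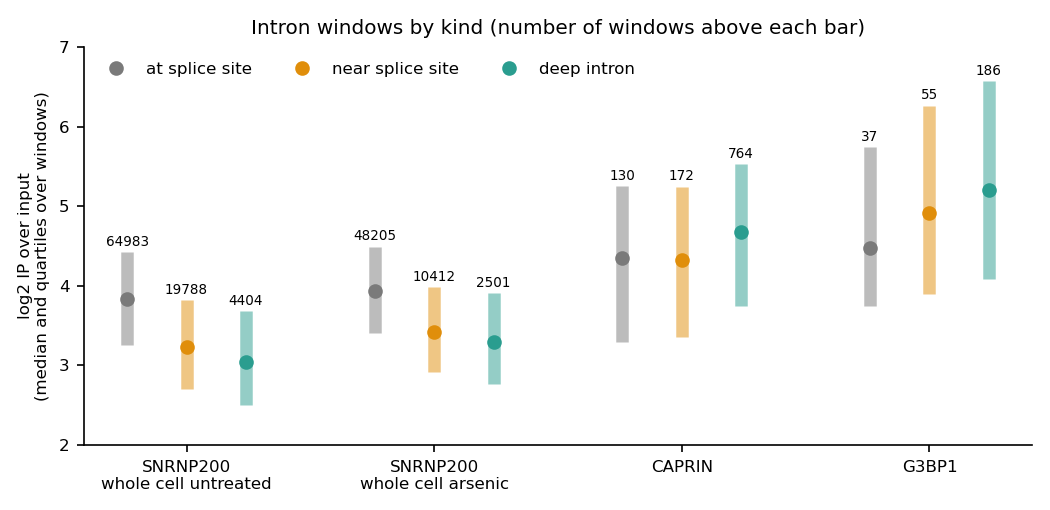
Log2 IP over input of intron windows at splice sites, near splice sites and in deep intron, for 4 lists (points are medians, bars run from the first to the third quartile over windows, numbers count windows). Windows near splice sites sit between the other classes in both SNRNP200 whole cell lists, at 3.24 and 3.42.

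The strongest windows near splice sites in untreated whole cells had almost no input reads there. Among those with at least 50 IP reads in untreated whole cells, LMNB2, a nuclear lamina protein, led the 5′ class at chr19:2433526-2433625, with 146 IP and 0 input reads and log2 enrichment of 6.73 (6.15 and 7.31 in the replicates). With arsenic the same window had 132 IP and 4 input reads and 3.97 (3.82 and 4.12). CHTF8 followed with 6.37 (4.65 and 8.09) from 232 IP and 1 input reads, and 4.29 (3.46 and 5.11) with arsenic. The third was BAG6, a chaperone of tail-anchored proteins, described with the arsenic comparison.

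In the class near both splice sites SF3B4, a protein of the U2 snRNP, had 6.72 (6.57 and 6.88) untreated and 4.29 (3.97 and 4.62) with arsenic. PABPN1, the nuclear poly(A)-binding protein, annotated together with the readthrough gene BCL2L2-PABPN1, had 6.63 (6.40 and 6.85) and 6.16 (6.08 and 6.23). LLGL1, a cell polarity protein, had 6.56 (6.44 and 6.69) and 4.44 (4.19 and 4.68). The replicate ranges of PABPN1 lay closest between the lists, while those of SF3B4 and LLGL1 were about 2 log2 units apart. Input reads of SF3B4, PABPN1 and LLGL1 were 0 in each untreated and 3, 1 and 2 with arsenic. These windows were picked as the highest of the untreated list. The part of this choice and of the input reads in the gaps was not tested.

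Near 3′ splice sites the untreated list was led by DUS3L, a dihydrouridine synthase, at 6.09 (5.82 and 6.37), UBE2M, a NEDD8-conjugating enzyme, at 6.0 (5.94 and 6.06), and RRP12, a ribosome biogenesis factor, at 5.77 (5.18 and 6.37). With arsenic these 3 windows had 3.46 (3.16 and 3.75), 5.81 (5.39 and 6.23) and 5.51 (5.45 and 5.56). DUS3L had 0 input reads untreated and 5 with arsenic, whereas UBE2M and RRP12 had 0 or 1 in both lists.

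With arsenic the leading window near a 5′ splice site was that of UBTD2. It was followed by TAF5L, a subunit of histone acetyltransferase complexes, at 6.95 (6.64 and 7.26), and BRD2 at 6.75 (6.40 and 7.10). TAF5L had 4.58 (3.68 and 5.49) in the untreated list. The class near both splice sites was led by a second window of BRD2 at 7.20 (7.12 and 7.28), PRRC2A, an RNA-binding protein of stress granules, at 6.72 (6.34 and 7.11), and EIF5A, a translation elongation factor, at 6.64 (5.45 and 7.84). Untreated, these 3 windows had 5.38 (4.6 and 6.16), 4.62 (3.87 and 5.38) and 4.62 (4.34 and 4.90). Near 3′ splice sites SELENOW, a selenoprotein, led with 5.90 (4.74 and 7.06) and was not in the untreated list. TMEM120B, a membrane protein of the nuclear envelope, had 5.87 (5.68 and 6.06) with arsenic and 5.26 (4.11 and 6.41) without. SFSWAP, a splicing regulator, had 5.83 (4.55 and 7.12) with arsenic and 3.39 (2.72 and 4.05) without. Input reads were 16 untreated and 5 with arsenic in the second window of BRD2, 5 and 0 in PRRC2A, and 15 and 8 in SFSWAP. EIF5A had 2 and 1, and TMEM120B had 0 in both lists. These windows were picked as the highest of the arsenic list.

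The windows near splice sites were spread over many genes. In untreated whole cells 4563 of the 9052 genes with any window (50.4%) had at least 1, and with arsenic 3283 of 8202. The median was 2 windows per gene in both lists, 1518 and 1372 genes had 1, and 511 and 201 had 10 or more. Between the lists 2899 genes were shared, which is 63.5% of the untreated and 88.3% of the arsenic genes. Of the 1664 genes with such windows only in untreated cells, 1553 still had a window of another class with arsenic.

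The 8 genes with the most windows in untreated cells all had fewer with arsenic. They were ranked by their untreated number, and 70.5% of all genes with such a window in either list had fewer. HUWE1, a ubiquitin ligase, had 74 windows near splice sites untreated and 37 with arsenic, of 376 and 277 windows in all. PRRC2B, an RNA-binding protein related to PRRC2A, had 70 and 55, and UBR4, a ubiquitin ligase, 52 and 40. AP3D1, a subunit of the AP-3 adaptor, had 51 and 9, while its windows of all classes numbered 154 and 48. POLE, the catalytic subunit of DNA polymerase epsilon, had 48 and 28, DNMT1, the maintenance DNA methyltransferase, 45 and 17, MCM5, a subunit of the replicative helicase, 43 and 19, and NUP210, a nuclear pore protein, 43 and 22. Of these 8 genes AP3D1 had the fewest with arsenic.

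Of the 8 genes with the most windows with arsenic, 5 were not among those. EIF4G1 had 39 untreated and 37 with arsenic, 31 of them the same windows. EEF2, the translocase of translation, had 32 and 30, with all 30 also in the untreated list. CSNK1E, a casein kinase, had 40 and 34, UBAP2L, a stress granule protein, 42 and 31, and ACLY, which makes cytosolic acetyl-CoA, 25 and 29. In HUWE1 the median log2 enrichment of the windows was 3.26 and 3.24, in PRRC2B 3.04 and 3.20, and in EEF2 3.32 and 3.35.

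**Figure D3:**
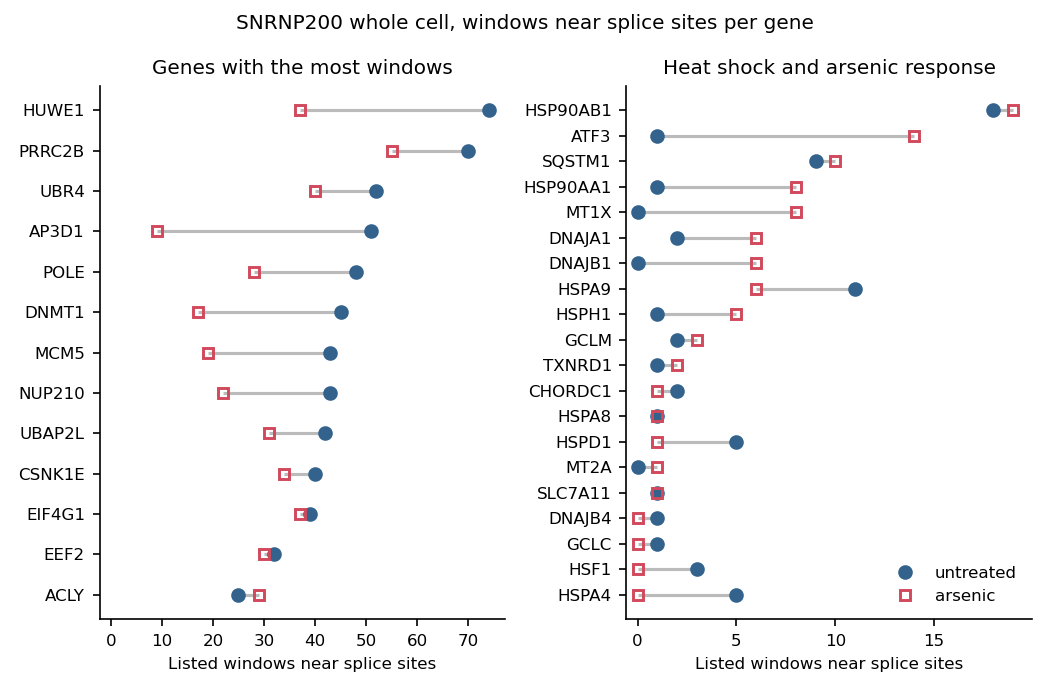
Number of listed SNRNP200 windows near splice sites per gene in untreated (filled circles) and arsenic (open squares) whole cells, for the genes with the most windows (left) and the genes of the heat shock and arsenic response list with any (right). All genes on the left but ACLY had fewer with arsenic, as did 70.5% of all genes with such a window. On the right ATF3 went from 1 to 14 and MT1X from 0 to 8.

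Over all 4947 genes with such a window in either whole cell list, 775 (15.7%) had more with arsenic, 3489 (70.5%) had fewer and 683 had the same number. Gene lists of the pathways were read against these shares. Of 20 genes of the heat shock and arsenic response list, 11 (55.0%) had more with arsenic and 7 had fewer, and the windows near splice sites in this list numbered 65 untreated and 92 with arsenic. Windows of all classes in the same 20 genes numbered 504 and 610. No test of this list was made, and the amount of each RNA in the 2 conditions was not compared.

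ATF3, a stress-induced transcription factor, had 1 window near splice sites untreated and 14 with arsenic, with input reads of 3 to 52 and IP reads of 23 to 292 per window in the arsenic list. MT1X, a metallothionein that binds heavy metals, had 0 and 8, and no window of any class in untreated cells. HSP90AA1, the stress-inducible cytosolic HSP90, had 1 and 8, and DNAJB1, an HSP70 co-chaperone induced by heat, had 0 and 6. HSPH1, an HSP70 exchange factor, had 1 and 5. HSP90AB1, the constitutive HSP90, had 18 and 19, of which 17 were the same windows, and its median input and IP reads per window went from 6.5 and 44 to 22 and 141. HSPA4, another exchange factor, had 5 and 0, HSPD1, the mitochondrial chaperonin, 5 and 1, and HSF1, the master regulator of the heat shock response, 3 and 0.

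In the other 7 lists most genes had fewer windows with arsenic, as over all genes, and a gene may stand in several lists. Of 14 genes of the U5 and U4/U6 snRNPs with such a window, 12 (85.7%) had fewer with arsenic and 1 had more. SNRNP200 itself had 14 and 4, PRPF8, the scaffold at the catalytic centre, 24 and 12, PRPF31, which binds U4, 15 and 4, and EFTUD2, the GTPase of the U5 snRNP, 11 and 7. The list had 100 windows untreated and 43 with arsenic. Among other core spliceosome proteins 46 of 56 genes (82.1%) had fewer, with SF3B3, of the SF3b complex, at 36 and 16, and RBM39, a splicing factor, at 28 and 17.

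Genes of SR and hnRNP proteins, many of which regulate their own splicing, held 383 windows untreated and 294 with arsenic, and 27 of 40 genes (67.5%) had fewer. HNRNPK and PCBP2, both poly(C)-binding, each had 29 and 24. Among 34 genes with known detained or retained introns, all had a window near a splice site in untreated cells and 32 with arsenic. SFPQ, a paraspeckle protein, had 27 and 25. Its list held 280 and 198 windows, and 20 of the 34 genes (58.8%) had fewer.

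Stress granule protein genes held 458 windows untreated and 345 with arsenic, and 26 of 32 (81.2%) had fewer, PRRC2B and EIF4G1 among them. Of snoRNA host genes, whose introns release small nucleolar RNAs, 50 of 67 (74.6%) had fewer, with 613 windows untreated and 390 with arsenic, and EIF4G1 had the most in both lists. Cytosolic ribosomal protein genes held 228 and 153 windows in 56 genes, 36 of which (64.3%) had fewer. RPL3 had 13 and 14, and RPS4X had 16 and 8. In the 7 lists other than the stress response between 7.14% and 15% of genes had more, next to 15.7% of all genes.

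A group chosen after its values were seen shows the extremes. CA2, a carbonic anhydrase, and TTLL12, of the tubulin ligase family, each had 17 windows near splice sites untreated and 0 with arsenic, when 43 and 50 windows of all classes became 7 and 17. NCAPD2, a condensin subunit, had 11 and 0, with 109 and 41 of all classes. In the other direction PNP, purine nucleoside phosphorylase, had 0 and 7, and CLTB, a clathrin light chain, 0 and 4. Windows of all classes in PNP numbered 18 and 28, and those in CLTB 5 and 13.

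A window near a splice site was less often found in both whole cell lists than 1 at a splice site. Of the 19788 untreated windows, 6333 (32.0%, 31.4% to 32.7%) were in the arsenic list, against 57.0% at splice sites, 25.4% in deep intron, 49.8% in coding sequence and 50.1% of all windows. Of the 10412 windows with arsenic, the same 6333 were 60.8% (59.9% to 61.8%), against 76.9% at splice sites, 44.7% in deep intron and 77.4% of all windows. Windows near both splice sites were found again most often (36.7% and 67.2%), then those near 5′ sites (32.5% and 59.7%) and near 3′ sites (25.7% and 56.1%).

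The share found again rose with read number in both classes. Among untreated windows with under 15 IP reads, 7.86% near and 24.5% at splice sites were in the arsenic list. With 20 to 29 reads the shares were 30.7% (29.4% to 32.0%) and 58.8%, and with 50 or more 64.3% (62.6% to 66.0%) and 77.7%. Starting from the arsenic list, they were 59.1% and 78.4% at 20 to 29 reads, and 79.5% and 94.2% at 50 or more. Windows near splice sites were thus below those at splice sites in each class of read number, in both directions.

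On the 5′ side the share found again fell with distance in untreated cells, from 58.3% at the site to 35.5%, 30.5%, 28.1% and 24.3% in the 4 positions after it. On the 3′ side it was 55.2% at the site and then 31.2%, 20.8%, 22.1% and 25.5%. In 4 classes of GC content the share among untreated windows near splice sites was 28.3%, 29.9%, 34% and 35.7% from the lowest to the highest. Median IP reads in these classes were 16, 20, 24 and 43.

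**Figure D4:**
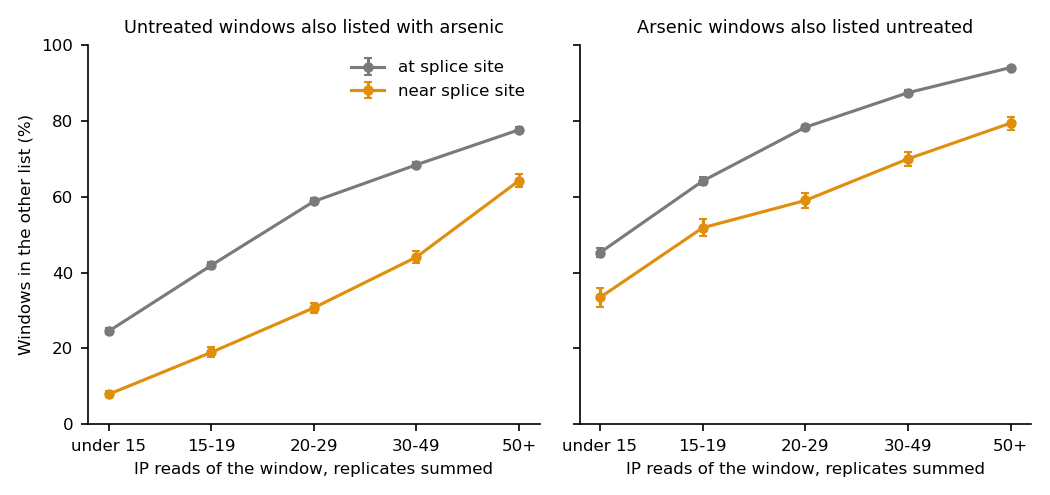
Share of SNRNP200 whole cell windows that are also in the list of the other treatment, by the number of IP reads (replicates summed), for windows at and near splice sites (points with 95% exact intervals, which cover counting error only). The line for windows near splice sites lies below in every class, from 7.86% against 24.5% up to 64.3% against 77.7% in the left panel.

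The level of enrichment with arsenic was compared with that in untreated whole cells to ask whether SNRNP200 occupancy of shared windows differed. For each window in both lists, the 2 replicate values of each list entered limma, fitted on all 91143 shared windows, with Benjamini-Hochberg adjustment over all of them. None of the 6333 windows near splice sites was called at an adjusted p under 0.05, and of all windows 0 (0%) were called, the smallest adjusted p being 0.99977. In simulated data with 2 values per list the same fit called none of the differences planted in this comparison, large ones included. The simulation took each window's observed spread as its true one, which can scatter spreads more widely than in the data. It therefore does not give the power of the real fit, and the absence of calls is no sign that occupancy was equal. An unadjusted p under 0.05 was reached by 283 of the 6333 (4.47%), and by 4.47% of all windows. The median difference, arsenic minus untreated, was 0.08 in log2 near splice sites (quartiles −0.51 and 0.66; medians of 3.39 untreated and 3.47 with arsenic) and −0.01 over all windows.

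The 2 replicate values of the arsenic list lay above both untreated values in 1089 of the 6333 windows (17.2%, against 15.6% of all windows). They lay below both in 908 (14.3%, against 16.9% of all windows). The median difference was 0.10 near 5′ splice sites, 0.06 near 3′ and 0.03 near both. The median standard error of a single window was 0.86, and these medians have no test.

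Windows of 4 genes among those highest with arsenic relative to untreated are given here, and none passed the adjustment (limma adjusted p of 0.99977 each). BRD2, at chr6:32973028-32973083, had untreated replicate values of 3.20 and 3.22 and arsenic values of 6.40 and 7.10. Its difference was 3.54 (SE 0.84), and its input reads went from 6 to 0 while its IP reads went from 110 to 140. The groups did not overlap, and the input was lower with arsenic.

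RILPL1, a Rab-binding protein, had 2.50 and 4.13 untreated against 6.10 and 6.90 with arsenic. AP1B1, a subunit of the AP-1 adaptor, had 1.75 and 2.93 against 5.02 and 5.89, and HCFC1, a chromatin coregulator, 2.23 and 2.51 against 4.95 and 5.77. Their input reads were 6, 6 and 4 untreated and 0 in each with arsenic. IP reads of AP1B1 were 56 and 57 in the 2 lists, beside a difference of 3.12 (SE 0.86). Those of RILPL1 went from 38 to 74 and those of HCFC1 from 41 to 53.

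In the 5 windows that were lowest with arsenic, input reads were higher with arsenic. TRIOBP, an actin-bundling protein, at chr22:37751929-37752028, had 5.43 and 5.89 untreated against 2.02 and 3.01, a difference of −3.14 (SE 0.85), with 0 and 5 input reads and 64 and 49 IP reads. BAG6 had 5.82 and 6.74 against 2.99 and 3.50, and HAUS7, of the augmin complex, 6.08 and 6.71 against 3.19 and 3.54. SF1, the protein that first binds the branch site, had 5.61 and 6.01 against 2.55 and 3.22, and PFKL, a phosphofructokinase, 3.96 and 7.19 against 1.95 and 3.57. Input reads were 0, 0, 0 and 1 untreated and 7, 3, 5 and 8 with arsenic in BAG6, HAUS7, SF1 and PFKL. Their IP reads were 70, 109, 35 and 129 untreated and 48, 68, 22 and 105 with arsenic. In each of these 9 windows the input moved against the enrichment by 3 to 7 reads. IP reads moved with the enrichment in each, least in AP1B1. The part of input and IP reads in the differences was not tested.

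**Figure D5:**
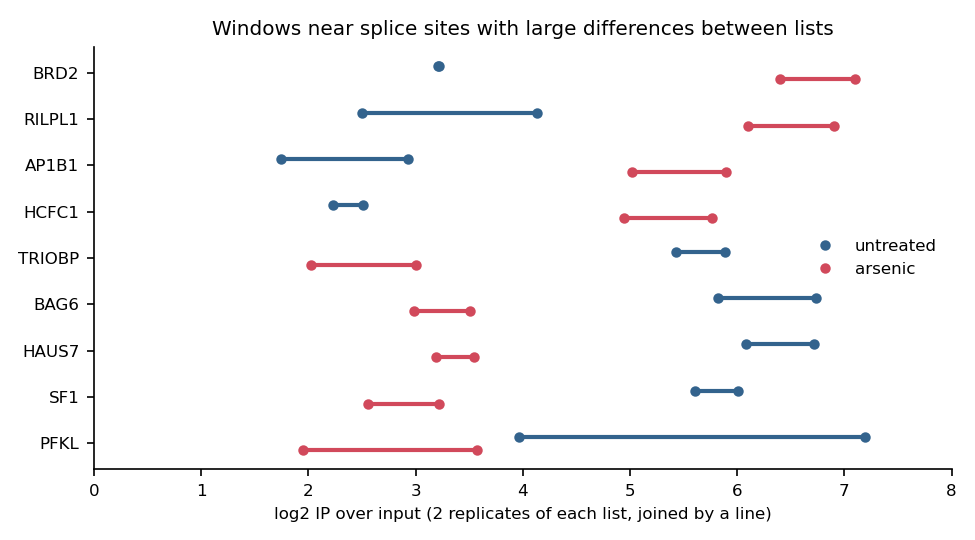
Log2 IP over input of both replicates in each whole cell list (points joined by a line) for 4 windows near splice sites among those highest and the 5 that were lowest with arsenic, 1 per gene, among those with at least 20 IP reads in both lists and ranges that do not overlap. BRD2 lies at 3.20 and 3.22 untreated and 6.40 and 7.10 with arsenic, and none of the 9 passed the adjustment over all windows.

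In the cytoplasmic fraction the few windows near splice sites came from 8 genes in each list, and 0 of them were shared between untreated and arsenic, so that comparison has no such window. Over the 1065 windows of any class shared by both cytoplasmic lists limma called 0 (0%), with 312 (29.3%) at an unadjusted p under 0.05. Arsenic values lay above both untreated values in 71.4% and below both in 0.751%. The whole list was shifted, with a median difference of 2.0 in log2, and with this median removed 26 windows had an unadjusted limma p under 0.05. The part of library scaling in the shift was not tested. Of the 9 untreated windows, 5 were also in the untreated whole cell list and 3 in the CAPRIN list. Windows at splice sites numbered 3 untreated and 9 with arsenic in these lists, beside the 9 and 8 near splice sites.

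The strongest was that of UBTD2 at chr5:172233722-172233821. It had 295 IP and 0 input reads in untreated cytoplasm, with 8.10 and 8.18 in the replicates. In whole cells it had 4.22 and 6.49 untreated (196 IP reads) and 6.67 and 8.90 with arsenic (348 IP reads). The CAPRIN list gave it 3478 IP and 0 input reads and 12.13 and 13.25, the highest of that list's windows near splice sites. RP2, a factor of ciliary transport, had 3.97 and 4.77 in untreated cytoplasm, 3.07 and 5.61 in whole cells with arsenic, and 5.18 and 6.43 for CAPRIN.

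MAFG, a small Maf transcription factor, had 2.79 and 5.11 in untreated cytoplasm against 2.02 and 3.43 in untreated whole cells. MEPCE had 1.27 and 2.54 in the cytoplasm, 2.59 and 2.89 in untreated whole cells, 2.42 and 2.61 with arsenic, and 2.67 and 4.52 for CAPRIN. ZNF276 and ZNF768, zinc finger proteins, had 2.29 and 3.68, and 2.28 and 3.17, in the cytoplasm. SPEN, a transcriptional repressor, gave 2 neighbouring windows with means of 3.54 and 3.34, and FAM91A1, of vesicle tethering, 1 with 3.19. Input reads were 20 for MEPCE, 8 for ZNF768 and at most 3 in the others.

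Of the 5 windows in both untreated lists, limma, fitted on all 651 shared windows, called 0 (0% of all windows). The largest difference, cytoplasm minus whole cell, was 2.79 in UBTD2 (adjusted p = 0.252), and the others were 1.22 in MAFG, −0.25 in ZNF276, −0.83 in MEPCE and −0.92 in ZNF768. In UBTD2 both cytoplasmic values lay above both whole cell values, which was the case for 29.8% of all shared windows. In MEPCE and ZNF768 both lay below, as for 21.2%. Of the 5, 1 had an unadjusted p under 0.05, as did 114 of 651 (17.5%).

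With arsenic the 8 cytoplasmic windows came from 7 genes or gene pairs. ALKBH5, an RNA demethylase, gave 2 windows of 1 stretch, with 3.28 and 5.75 in 1 and 3.4 and 3.75 in the other. MAZ, a zinc finger transcription factor, had 3.65 and 4.02, HELB, a DNA helicase, 4.04 and 4.58, and PRKCSH, a subunit of glucosidase II, 3.06 and 4.54. POU4F1, a neural transcription factor, had 3.37 and 4.02, TAF13, a subunit of TFIID, 3.53 and 3.57, and the window annotated to HELLS, a chromatin remodeller, and RP11-119K6.6 had 3.03 and 3.43. Input reads were between 7 and 50, and in TAF13 and HELLS they outnumbered the IP reads (50 against 29 and 28 against 15), so the deposited enrichment there rests on the authors' scaling of the libraries.

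POU4F1 was the 1 window also listed in whole cells with arsenic, at 1.99 and 2.23. Its difference, cytoplasm minus whole cell, was 1.59 (limma adjusted p = 0.309 over 882 shared windows, of which 0% were called and 18.8% had an unadjusted p under 0.05). Both cytoplasmic values were above both whole cell values, as for 60.1% of the shared windows, while 1.93% lay below. The median difference over all 882 was 1.36, and with it removed that of POU4F1 was 0.23.

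Windows near splice sites of CAPRIN and G3BP1 were few and mostly absent from the SNRNP200 lists. Levels of different proteins come from separate libraries and were not tested against each other. Of 172 for CAPRIN, 26 (15.1%) were in a whole cell SNRNP200 list, and of 55 for G3BP1, 3 (5.45%). Windows near splice sites outnumbered those at splice sites, with 172 against 130 and 55 against 37, where SNRNP200 in untreated whole cells had 19788 against 64983. Each side of an intron offers up to 4 near windows but a single window at the splice site. The windows available in each class were not counted, so these numbers show no preference. In CAPRIN the median log2 enrichment was 4.33 near, 4.35 at splice sites and 4.67 in deep intron, and in G3BP1 4.91, 4.48 and 5.2. With at least 20 IP and 10 input reads the CAPRIN difference from deep intron turned from −0.34 to 0.38, over 21 windows near splice sites. No input read was present in 86 of the 172 windows of CAPRIN and in 15 of the 55 (27.3%) of G3BP1.

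Of CAPRIN's windows 106 lay near a 5′ splice site, 46 near a 3′ splice site and 20 near both, a 5′ to 3′ ratio of 2.30 that was 2.36 at splice sites. G3BP1 had 32, 17 and 6, with ratios of 1.88 near (65.3% on the 5′ side, 50.4% to 78.3%) and 3.86 at splice sites (79.4%, 62.1% to 91.3%). Almost all stretches had 1 near window listed: 102 of 104 near 5′ splice sites in CAPRIN and 28 of 29 in G3BP1.

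CAPRIN's strongest after UBTD2 was JAM3, a junction adhesion molecule, in a short intron at chr11:134148982-134149045, with 765 IP and 0 input reads and 10.00 and 11.42 in the replicates. DYM, a Golgi protein, had 9.59 and 10.38, ALAS1, the first enzyme of haem synthesis, 8.29 and 9.65, ITFG2, of the KICSTOR complex, 8.21 and 9.61, and UBE3A 7.89 and 8.28. Of these 6 windows UBTD2 and ITFG2 were in a whole cell list, ITFG2 with 2.4 and 4.6 with arsenic.

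In G3BP1 ZBED9, a gene derived from a transposon, led at chr6:28597324-28597423 with 1955 IP and 3 input reads and 10.30 and 12.18. The long noncoding RNA RP11-867G23.8 had 9.89 and 10.93, and 5.19 and 6.47 for CAPRIN. TTC3, a ubiquitin ligase, had 9.67 and 10.59, RP1-29K1.6 had 8.67 and 8.99, XXbac-BPG308K3.5 had 7.91 and 8.17, and RAD50, of the MRN complex, 6.89 and 8.46. The value of RAD50, like 12 of the 55 windows, comes from entries called over up to 3 replicates, although 2 G3BP1 IP samples are listed, and gives their lowest and highest. XXbac-BPG308K3.5 was also in the CAPRIN list with 7.54 and 8.26, so its ranges overlapped.

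Noncoding genes held a larger share of these windows than of the CAPRIN and G3BP1 lists as a whole, as they did of deep intron windows. Protein-coding genes held 72.7% of the G3BP1 windows near splice sites, 75.3% of those in deep intron and 91.9% of all, and for CAPRIN 96.5%, 96.2% and 98%. Of the 55 of G3BP1, 14 (25.5%) were in lncRNA genes, against 4.53% of all its windows, and of the 172 of CAPRIN 6 (3.49%) against 0.569%. In untreated whole cells of SNRNP200 the shares were 0.682% and 0.762%. CAPRIN and G3BP1 shared 15 windows near splice sites, which is 8.72% of CAPRIN's and 27.3% of G3BP1's.

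The other windows listed 3 times came mainly from both SNRNP200 whole cell lists and CAPRIN. SEC62, of protein translocation, had 2.36 and 3.91 untreated, 2.38 and 2.90 with arsenic and 1.75 and 2.96 for CAPRIN. NME4, a mitochondrial kinase, had 4.99 and 6.76, 4.12 and 6.27, and 4.13 and 4.46, and ATXN2L, a stress granule protein, 2.79 and 3.03, 3.31 and 6.12, and 3.50 and 3.67. A window of SFPQ at chr1:35192030-35192121 was shared with G3BP1, at 1.43 and 3.82 untreated, 3.67 and 4.63 with arsenic and 2.91 and 3.37 for G3BP1, again from an entry over up to 3 replicates. In SEC62 the ranges of all 3 lists overlapped, in NME4 that of CAPRIN lay below the untreated one, and in ATXN2L the untreated range lay below the other two.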

How the data were processed

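Reads were trimmed with fastp 0.11.5 and aligned with STAR 2.7.6 to hg38, per the submitters' processing notes. For the window caller no name is given in these sources. The 6 lists of enriched windows deposited by the authors have no column names, and what each column holds was worked out from its numbers. The deposited counts are raw read counts of input and IP, summed over replicates. The deposited log2 values are enrichments of IP over input for the lowest, mean and highest replicate. As deposited, p-values and q-values are those of the best and worst replicate, and the deposited GC content is a fraction. Another deposited column counts the replicates that called a window enriched. The G3BP1 list holds 2 sets, with up to 2 and up to 3 replicates; the 55 windows near splice sites came from 71 entries, 16 windows being in both sets, and the first set was used for these.

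Groups followed the characteristics in the labels, since the treatment field names arsenic for all samples. Members and gene lists were chosen with earlier results of these data known. Shares have 95% exact binomial intervals. Levels were compared with limma 3.58.1 (R 4.3.3) on the lowest and highest replicate of 2 lists over all shared windows, with Benjamini-Hochberg adjustment. On simulated data the median fitted difference lay near most planted ones. The fit called none in either arsenic comparison, and called large ones in part between cytoplasm and whole cell. Each window's observed spread was taken as its true one there, so the power of the real fits is not known. A lack of calls is no sign of equal levels. A fit on windows listed in both conditions cannot see windows lost from 1 list. Tables were made with Python 3.11.15, pandas 2.3.3 and scipy 1.17.1. Alternatives were a variance trend, median centring, q under 0.05, at least 20 IP and 10 input reads, 1 window per gene, weighting by IP reads, and overlap by 1 base.

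Named were the 8 genes with most windows per whole cell list, the 3 highest windows per class with at least 50 IP reads, all windows of the cytoplasmic lists, the 6 highest of CAPRIN and of G3BP1, the 5 largest differences each way with ranges apart and at least 20 IP reads (1 of these is not reported here), the leading genes of each of 8 gene lists, and windows in most lists. Further genes of the lists, and windows shown by sequence, were chosen after their values were seen.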

Additional observations from a re-analysis of the deposited data

How the results depend on the processing

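No paired analysis was possible because the lists give the lowest and the highest replicate of each window without replicate numbers, and leaving out a replicate was not possible for the same reason. Calls of windows near splice sites numbered 0 in each fit that held any. These zero counts are no measure of stability, since the power of the fits is not known. The whole cell fit called no planted difference in simulated data, whose spreads need not match the real ones. The median arsenic difference of these windows was 0.08, with 0.24 at q under 0.05 and 0.32 with 1 window per gene, beside −0.01, 0.19 and 0.10 over all windows. The share whose ranges lay apart and higher was 23.4% at q under 0.05, 13.8% at 20 IP and 10 input reads and 20.1% with 1 window per gene (20.6%, 11% and 17% of all windows), and the share lower was 11.2%, 12.2% and 8.24% (11.9%, 17.7% and 15.2%). With a variance trend limma called 127 of 1065 shared cytoplasmic windows, and at q under 0.05 20 of 39, both without removing the median shift. No window near a splice site was among those tested. With arsenic, cytoplasm against whole cell, 1 of 24 shared windows was called at q under 0.05 and 3 of 553 with the read minimum, and neither fit held a window near a splice site.

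The share of windows near splice sites fell in whole cells to 6.25% untreated and 4.22% with arsenic at q under 0.05, to 7.96% and 7.87% with 20 IP and 10 input reads, and to 8.25% and 7.69% weighted by IP reads. Weighting gave 3.25% for CAPRIN. For G3BP1 the share was 3.29% at q under 0.05, 0.665% with the read minimum and 4.08% weighted. Of untreated windows near splice sites 16.5% were shared at q under 0.05 in both lists and 37.1% at 20 IP reads, and of those with arsenic 62.2% and 64.4%. Requiring 20 IP and 10 input reads turned CAPRIN's difference from deep intron from −0.34 to 0.38 over 21 windows. The cause of these changes was not tested. Of the values that answer a comparison 49 kept their call or size under the alternatives and 21 moved. The 49 are no measure of stability, because some could not move, such as the median difference and range overlap under a variance trend. Whether the absence of calls in whole cells could have moved is not known. Few input reads limit the enrichments in whole cells, where the median was 3 per window, and in CAPRIN, where 86 of the 172 windows had none.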
